A study of Mus musculus with 26 samples.

Results

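The comparison described here sets mouse forelimbs in which Hic1 was deleted by a Prrx1-driven Cre recombinase against forelimbs of control embryos, all at E13.5, mid-gestation. Its members are the 7 knockout and 5 control libraries of the conditional series, 12 of the 26 bulk RNA sequencing libraries in all, taken by the genotype in their labels. The knockouts are PxCre; Hic1 f/f, with Cre and a floxed Hic1 allele on both chromosomes. The controls are Hic1 f/+, with 1 floxed allele and no Cre, although their titles call them wildtype. Beside them stand 5 conditional heterozygotes (PxCre; Hic1 f/+) and a conventional series of 3 Hic1 +/+, 3 Hic1 +/- and 3 Hic1 -/- libraries. All come from E13.5 forelimbs, from timed matings of dams over 7 weeks old, and no sex or strain is labelled. Loss of Hic1, presence of Cre, and a second floxed allele with its linked chromosome 11 sequence all separate the knockouts from the controls and cannot be told apart in this contrast. Knockouts and heterozygotes both carry Cre, so by labelled genotype that contrast differs in the floxed alleles alone.

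HIC1 (hypermethylated in cancer 1) is a zinc finger transcriptional repressor that binds DNA around a GGCA core and recruits corepressors such as CtBP. Its gene is often silenced by promoter methylation in human tumours, and mice without it die around birth with developmental defects. In the limb Hic1 is known as a marker of mesenchymal progenitors of connective tissue. Prrx1-driven Cre acts in limb bud mesenchyme and its descendants, so muscle, endothelium, nerve, blood and epidermis in the homogenised forelimb keep Hic1.

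Expression is given as the deposited FPKM, sequenced fragments scaled by transcript length and library depth, and the number of reads behind each value is unknown. The 12 libraries summed to between 436559 and 497121 FPKM, with 16677 to 17242 genes above 0. Prrx1, the mesenchymal gene whose regulatory sequence drives the Cre, stood at 119 to 136 FPKM in controls and 118 to 169 in knockouts, so limb mesenchyme was present in every library. Xist exceeded 100 FPKM in 1 of 5 controls and 2 of 7 knockouts. Letter pairs in the column names divide the libraries further, with no stated meaning: NZ holds 2 controls and 2 knockouts, OB holds 1 control and 5 knockouts, and OC holds 2 controls alone. Of the heterozygotes, which also enter the fits, 1 is NZ, 1 is OA and 3 are OB. In a fit with these letters as a term, the OC term takes up both OC controls. Knockout against control then rests on the NZ and OB controls. Hbb-bs, an adult beta-globin gene that only some inbred strains carry, was at 6.64, 7.39 and 22.3 FPKM in control replicates 1, 4 and 5, and between 0.0033 and 0.0064 FPKM in the other 14 conditional libraries. The part of the column letters and of this Hbb-bs split in the results below was not tested beyond the fits named with them. The labels do not say that replicates are separate embryos or litters, so the p-values cover library-to-library spread, which may be technical.

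Promoters of 4 genes that changed are printed here, from RefSeq (build GRCm38.p6, 250 bases before to 50 after each start), because 3 of them belong to genes that rose in the knockout over both control and heterozygote, and the other to a gene that fell against both. Capitals mark GGGCA or its reverse complement TGCCC, which hold the GGCA core, and TGACGTCA, the palindromic cyclic AMP response element. The shorter GGCA core also occurs outside these motifs, as in the Sst window, and is left unmarked there. The promoters lie on the plus strand at chr16:96467356-96467655 for Pcp4 and chr5:43515319-43515618 for C1qtnf7, and on the minus strand at chr16:23890795-23891094 for Sst and chr2:80447347-80447646 for Frzb.
Sst: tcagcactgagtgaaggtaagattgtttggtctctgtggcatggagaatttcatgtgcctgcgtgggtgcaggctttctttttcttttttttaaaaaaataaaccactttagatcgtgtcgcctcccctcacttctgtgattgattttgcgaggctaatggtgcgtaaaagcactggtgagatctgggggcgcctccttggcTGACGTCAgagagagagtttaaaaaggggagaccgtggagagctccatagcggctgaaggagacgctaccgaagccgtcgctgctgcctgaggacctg
Pcp4: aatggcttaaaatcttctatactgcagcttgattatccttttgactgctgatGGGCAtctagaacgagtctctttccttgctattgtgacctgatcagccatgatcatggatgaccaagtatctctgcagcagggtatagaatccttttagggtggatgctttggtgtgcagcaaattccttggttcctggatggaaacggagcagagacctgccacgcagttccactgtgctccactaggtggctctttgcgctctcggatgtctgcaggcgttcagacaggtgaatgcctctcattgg
C1qtnf7: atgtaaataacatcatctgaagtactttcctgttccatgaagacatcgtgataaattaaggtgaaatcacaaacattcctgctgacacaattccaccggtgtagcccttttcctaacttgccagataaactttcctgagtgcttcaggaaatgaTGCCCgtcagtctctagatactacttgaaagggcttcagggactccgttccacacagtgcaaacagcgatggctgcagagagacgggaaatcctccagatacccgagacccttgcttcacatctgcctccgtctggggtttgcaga
Frzb: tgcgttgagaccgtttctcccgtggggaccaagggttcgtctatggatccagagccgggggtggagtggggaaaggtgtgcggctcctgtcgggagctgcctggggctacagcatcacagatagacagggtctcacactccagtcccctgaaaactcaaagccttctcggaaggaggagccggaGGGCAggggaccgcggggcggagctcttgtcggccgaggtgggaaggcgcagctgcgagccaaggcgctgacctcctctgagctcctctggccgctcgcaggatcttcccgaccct
The Sst window holds 1 TGACGTCA and 0 GGGCA, and each of the other 3 windows holds 1 GGGCA and 0 TGACGTCA. RefSeq promoters were matched for 24 of the 34 called genes. Counting both strands, GGGCA stood in 8 of 13 promoters of higher genes (61.5%), in 6 of 11 of lower genes (54.5%) and in 53% of all 27025 promoters. TGACGTCA stood in 1 of the 13, in 0 of the 11 and in 1.88% of all promoters. The 2 motifs do not overlap in any printed window, and a match describes the letters alone.

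Hic1 itself lies at chr11:75164565-75169519 on the minus strand (mm10). Its level in control replicates 1 to 5 was 52.4, 65.8, 58.0, 65.2 and 61.4 FPKM. In the 7 knockouts it ran from 2.76 through a median of 4.91 to 6.16 FPKM. The groups lay far apart, with a mean of 60.6 ± 5.52 (SD, n = 5) in controls and 4.82 ± 1.13 (SD, n = 7) in knockouts, which is 7.95% of the control. Hic1 fell by 3.43 on the log2(FPKM + 1) scale (SE 0.12, adjusted p = 3.58e-12, limma over all tested genes with Benjamini-Hochberg adjustment). The remaining 7.95% comes from the whole forelimb and was not divided into cells that Cre does not reach and cells where it acted in part. Heterozygotes stood between, at 31.9 ± 2.52 FPKM (SD, n = 5), which is 52.6% of the control.

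Beside Hic1, a small set of genes changed: 19 were higher and 15, Hic1 included, were lower in the knockout at an adjusted p under 0.05, together 34 of 12918 tested genes (0.263%; 0.147% higher and 0.116% lower). Without adjustment, 802 genes (6.21%) had a p under 0.05, of which 379 lay higher and 423 lower. Every knockout library lay on one side of every control library for 31 of the 34 called genes, the exceptions being Efna3, Mfap5 and Selenbp1. The background for that is 89 of the tested genes (0.689%; 0.364% with every knockout above and 0.325% with every knockout below), and the same values chose the called genes. Of the 34, 33 are annotated as protein-coding. The count rests on single controls: it was 17 without control replicate 2 and 20 without control replicate 1. It was 17 without both OC controls and 5 (Hic1, Sst, AA465934, Fam196b and Slfn9) without the 3 Hbb-bs controls. All 34 kept their direction in each, which for the 31 genes without overlap could not have turned.

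**Figure D1:**
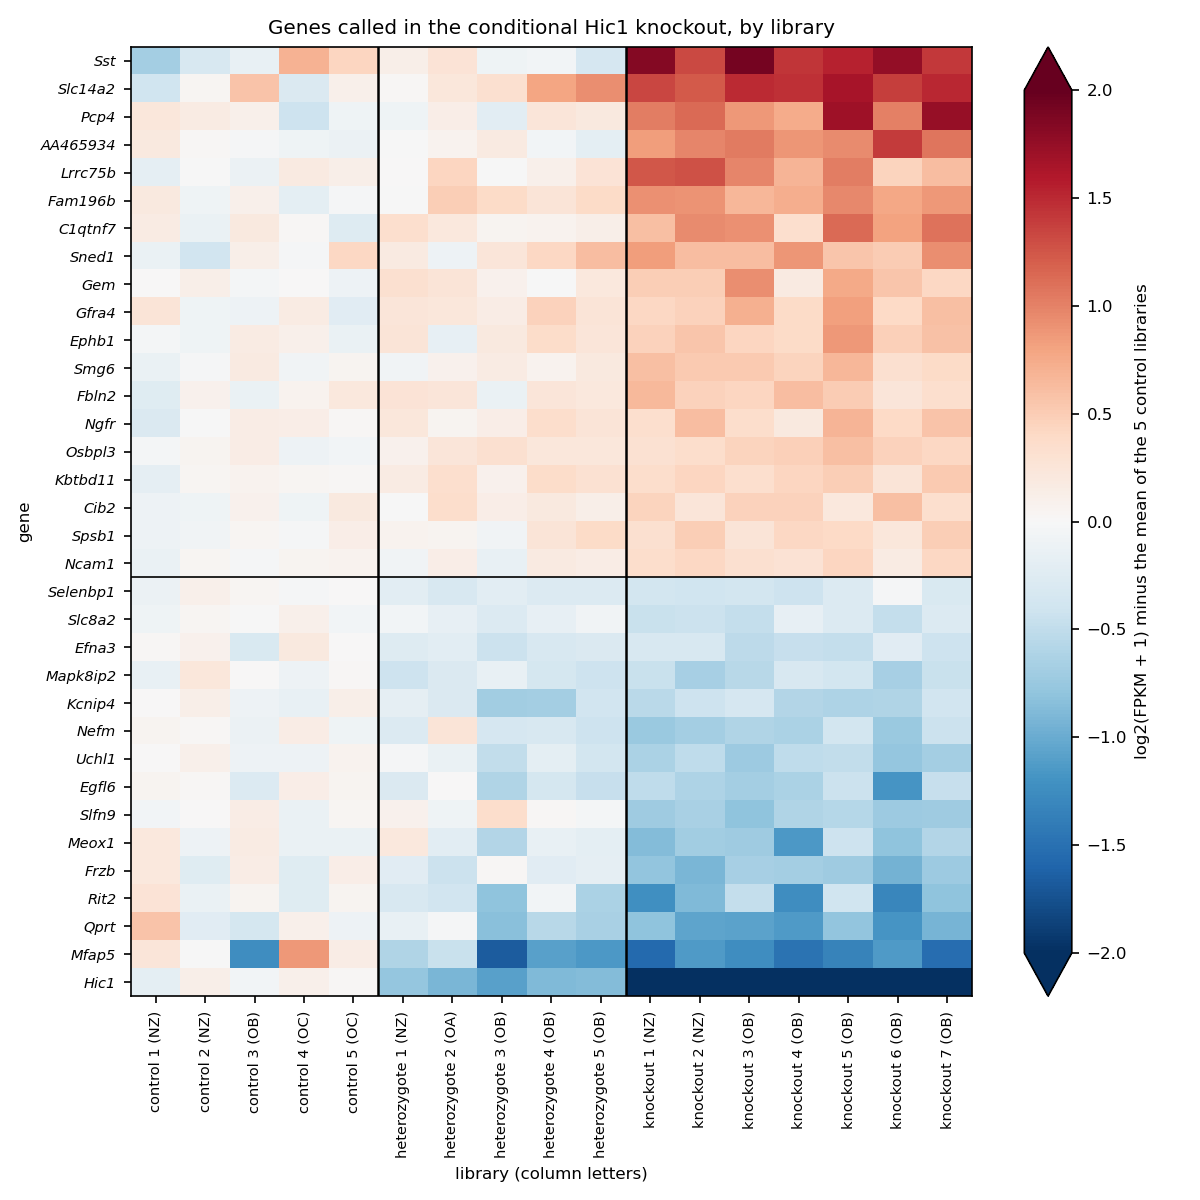
Heat map of the 34 called genes (rows) in the 17 conditional libraries (columns, with their column letters), coloured by log2(FPKM + 1) minus the mean of the 5 control libraries. The 19 higher genes are above the horizontal line and the 15 lower genes below it, and control replicate 3 is as low for Mfap5 as the knockouts.

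**Figure D2:**
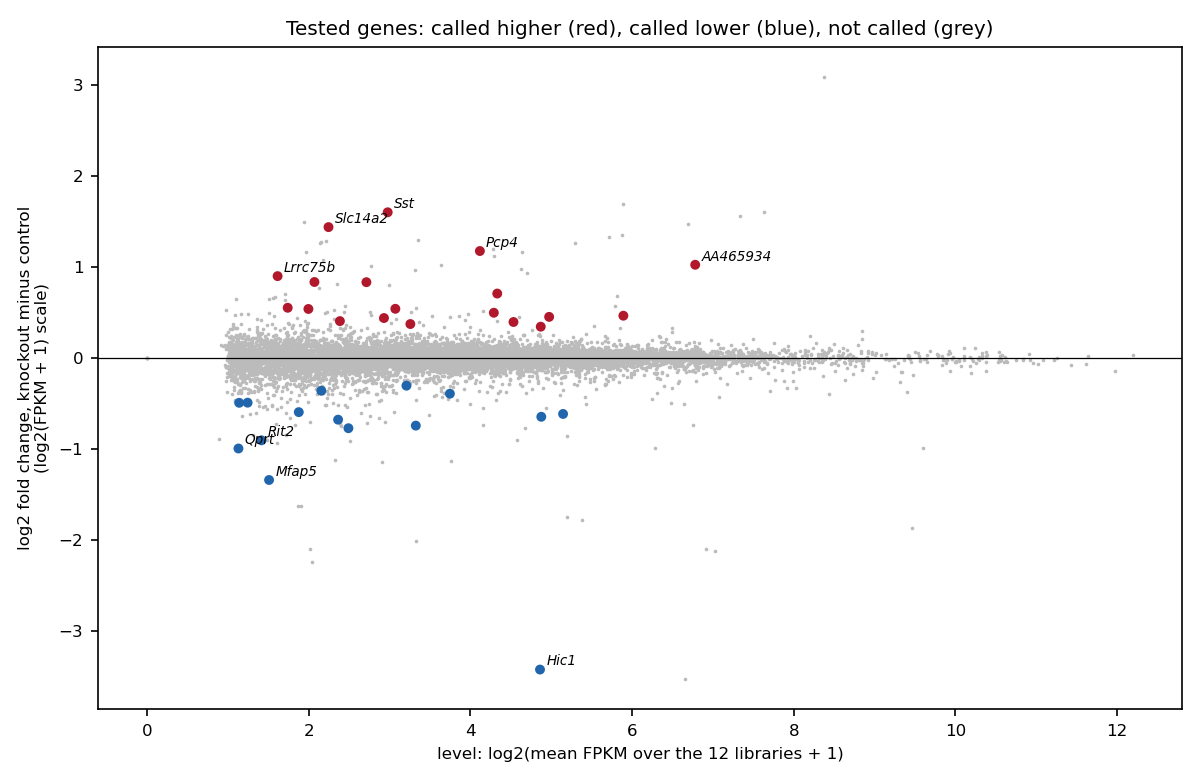
Log2 fold change of each tested gene, knockout minus control on the log2(FPKM + 1) scale, against its level. Red and blue points are the 19 higher and 15 lower called genes. Of 24 grey points past a log2 fold change of 1.2 in size, 23 are small RNA genes, 22 of them at 0 FPKM in at least 6 of the 12 libraries.

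The largest rise on the log2(FPKM + 1) scale was that of Sst, which encodes somatostatin, a peptide hormone that inhibits release of other hormones. It was at 1.21, 1.83, 2.20, 4.73 and 3.78 FPKM in control replicates 1 to 5 and ran from 7.79 through a median of 9.20 to 12.3 FPKM in the knockouts. Both OC controls were the highest controls and still lay under every knockout. The mean was 2.75 ± 1.46 (SD, n = 5) against 9.81 ± 1.76 FPKM (SD, n = 7), 3.57 times the control (log2 fold change 1.6, SE 0.19, adjusted p = 0.000298, limma). Heterozygotes were at 2.52 ± 0.552 FPKM. C1qtnf7, which codes for a secreted C1q/TNF-related protein, was at 4.00, 3.04, 4.11, 3.54 and 2.72 FPKM in the controls and between 4.63 and 8.74 in the knockouts (median 7.37). These ranges did not overlap, and the mean was 2.02 times the control (log2 fold change 0.83, SE 0.12, adjusted p = 0.00219, limma). The other 7 tested somatostatin-list members, neuropeptides, hormones and somatostatin receptors, passed no test, Sstr4 being at 0.865 in controls and 1.18 FPKM in knockouts, and Sstr1 at 1.72 and 2.39. Of the 11 tested C1q and TNF-related genes C1qtnf7 alone was called, with C1ql3 at 2.46 and 1.3 FPKM and C1qtnf2 at 8.93 and 5.05 FPKM.

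Matrix genes with EGF repeats moved in both directions. Sned1, a matrix protein with EGF and fibronectin type III repeats, was at 12.3, 10.2, 14.8, 13.4 and 18.4 FPKM in the controls and between 19.7 and 26.7 in the knockouts (median 21.4), which is 1.66 times the control by the means (log2 fold change 0.71, adjusted p = 0.0198, limma). Egfl6, a secreted EGF-repeat protein that binds integrin alpha8 beta1, was at 37.2, 36.5, 29.6, 39.7 and 37.5 FPKM in the controls and between 15.3 and 26.4 in the knockouts (median 23.0). The knockout mean was 0.633 times the control (log2 fold change -0.65, adjusted p = 0.0215, limma). With the column letters as a term Sned1 stayed called (log2 fold change 0.79, adjusted p = 0.0190, limma), whereas Egfl6 did not (-0.51, adjusted p = 0.167). Of 12 fits without 1 library, 5 lost the call of Egfl6 and 3 that of Sned1. Sned1 and Egfl6 were the called members among 13 tested EGF-repeat matrix genes, whose median log2 fold change was -0.08, against 0.01 over all tested genes. With the column letters as a term that list median turned to 0.06.

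Of 20 tested elastic fibre and microfibril genes, 1 rose and 1 fell. Fbln2, a fibulin of elastic fibres and basement membranes, was at 40.1, 50.2, 43.3, 50.1 and 54.8 FPKM in the controls and between 56.0 and 74.6 in the knockouts (median 65.4), 1.38 times the control (log2 fold change 0.46, adjusted p = 0.0278, limma). Its ranges abut without overlapping, and the call was lost in 9 of the 12 fits that left out 1 library. Mfap5, a microfibril-associated glycoprotein, was at 3.87, 3.07, 0.732, 6.51 and 3.54 FPKM in the controls and between 0.396 and 0.874 in the knockouts. The low control is replicate 3, the single OB control, which stood at the knockout level. Mfap5 was called (log2 fold change -1.34, SE 0.27, adjusted p = 0.0390, limma), but 10 of 12 fits without 1 library lost the call. Its log2 fold change was -1.46 within NZ and -0.10 within OB, and -0.81 with the column letters as a term (adjusted p = 0.387, limma). Loxl1, a lysyl oxidase that cross-links elastin, was not called at 23.7 and 30.9 FPKM, nor was Emilin2 at 13.3 and 10.5 FPKM.

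Frzb, a secreted Wnt antagonist also known as sFRP3, was at 7.52, 5.19, 7.13, 5.22 and 7.11 FPKM in the controls and between 2.81 and 3.65 in the knockouts (median 3.46). Every knockout lay below every control, and the mean was 0.516 times the control (log2 fold change -0.77, SE 0.09, adjusted p = 0.000310, limma). The other 15 tested Wnt ligands and antagonists were not called, and of all 16, 13 had a positive log2 fold change, with a median of 0.09. Wnt5b was at 9.65 and 11.7 FPKM, and Wnt4 at 14.2 and 17.4 FPKM. Among 15 tested Wnt response genes 0 were called, with Rspo3, a secreted enhancer of Wnt signalling, at 14.1 and 11.1 FPKM (adjusted p = 0.28, limma). Meox1, a homeobox transcription factor of somites and their derivatives, was at 14, 11.1, 13.6, 10.8 and 10.8 FPKM in the controls and between 4.85 and 8.76 in the knockouts (median 6.95), 0.566 times the control (log2 fold change -0.75, adjusted p = 0.0104, limma). The other 14 tested transcription factors of limb connective tissue were not called, Ebf2 being at 14.3 and 11.7 FPKM and Osr2 at 24.7 and 29.9.

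**Figure D3:**
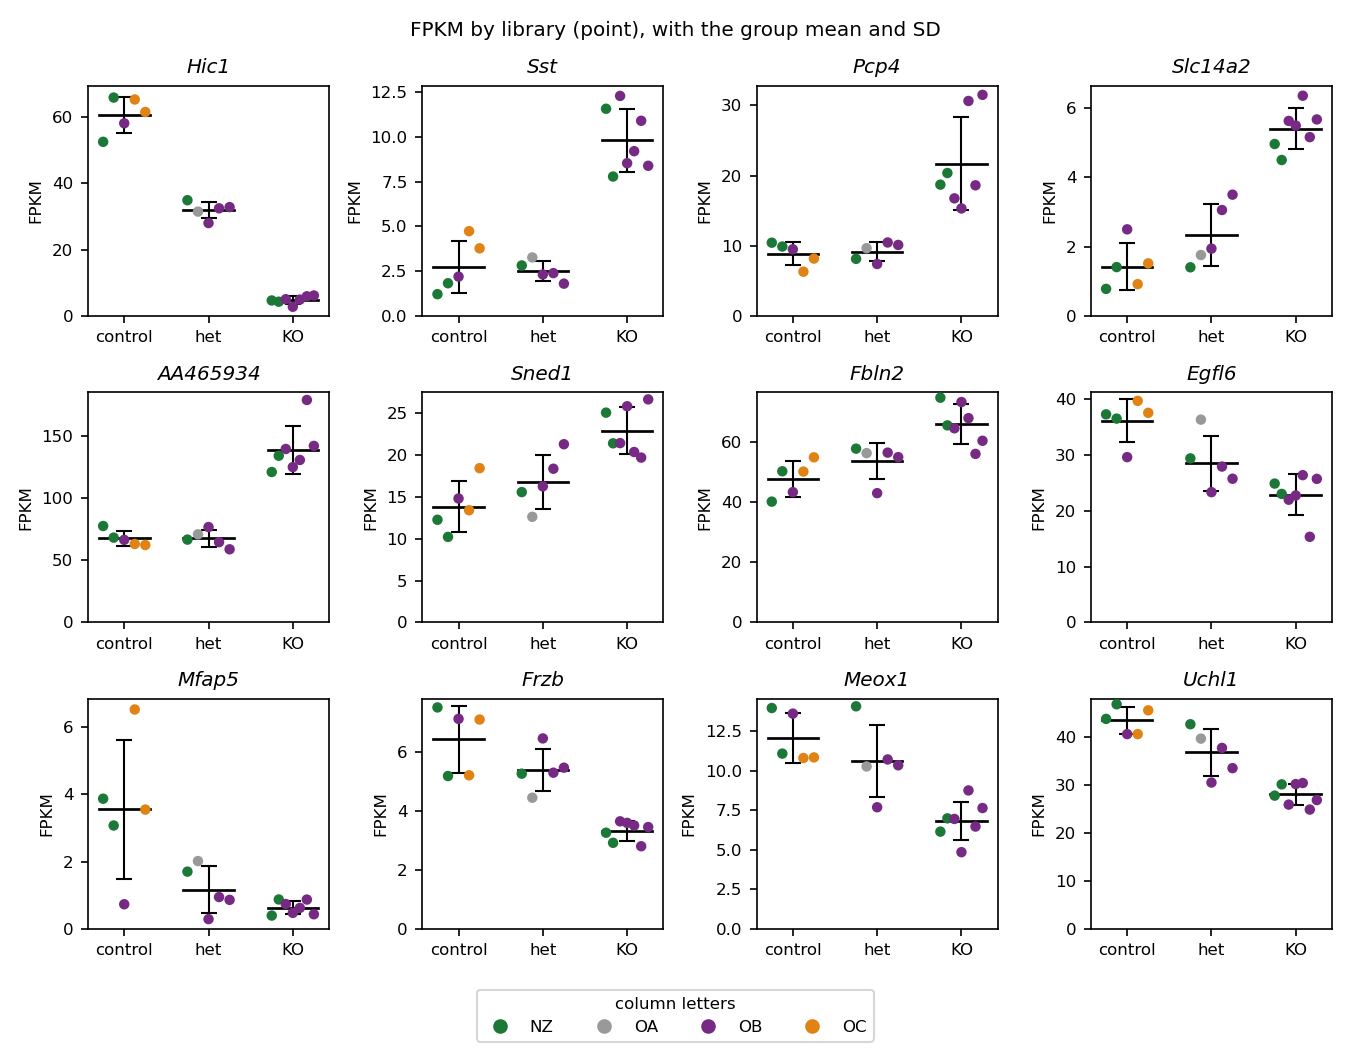
FPKM of 12 called genes in each conditional library (points, coloured by the letters of the column name), with the group mean (bar) and SD (whiskers). Heterozygotes lie beside the controls for Sst, Pcp4 and AA465934 and between the groups for Hic1, while the single OB control of Mfap5 lies with the knockouts.

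Among receptors, Gfra4, the receptor of the GDNF family ligand persephin, was at 6.87, 5.21, 5.13, 6.41 and 4.65 FPKM in the controls and between 7.58 and 10.6 in the knockouts (median 8.14), and rose by 0.54 on the log2 scale (SE 0.09, adjusted p = 0.0148, limma). Ngfr, the p75 neurotrophin receptor, was at 20.0, 24.6, 27.4, 27.3 and 25.1 FPKM in the controls and between 28.4 and 40.3 in the knockouts (median 32.8), a log2 fold change of 0.45 (adjusted p = 0.0374, limma). Both ranges were separate, although 8 of 12 fits without 1 library lost the call for Ngfr and the column letters as a term lost both (adjusted p = 0.173 for Gfra4 and 0.137 for Ngfr). These were the called members of 14 tested GDNF family and neurotrophin genes. Gfra1, the GDNF receptor, was not called at 12.9 in controls and 19.6 FPKM in knockouts (log2 fold change 0.52, adjusted p = 0.54, limma), and Gfra3 was at 3.14 and 4.12 FPKM. The ligand Gdnf, named after its values were seen, was at 1.25 FPKM in both groups.

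Ephb1, a receptor for ephrin B ligands, rose by 0.54 on the log2 scale, with means of 2.15 ± 0.281 and 3.58 ± 0.548 FPKM (adjusted p = 0.0194, limma), controls between 1.86 and 2.52 and knockouts between 3.08 and 4.73. Efna3, a membrane-anchored ephrin A ligand, had means of 14.6 ± 1.96 and 10.8 ± 0.855 FPKM (log2 fold change -0.39, adjusted p = 0.0215, limma), with the lowest control at 11.5 under the highest knockout at 12.2. That control was again the OB library, and within OB the log2 fold change was -0.11. Ncam1, the neural cell adhesion molecule also found on condensing mesenchyme and muscle, was at 22 to 25.6 FPKM in controls and 27.4 to 33.0 in knockouts (log2 fold change 0.34, adjusted p = 0.0215, limma). Of 12 fits without 1 library, 6 lost the call of Efna3, 4 that of Ncam1 and 3 that of Ephb1.

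Pcp4 encodes a small protein that binds calmodulin. It was at 10.4, 9.88, 9.49, 6.30 and 8.17 FPKM in the controls and ran from 15.3 through a median of 18.7 to 31.5 FPKM in the knockouts, 2.45 times the control by the means (log2 fold change 1.17, SE 0.16, adjusted p = 0.00158, limma). With the column letters as a term the log2 fold change was 0.97 and missed the threshold (adjusted p = 0.0788). Knockout replicates 5 and 7, at 30.6 and 31.5 FPKM, stood well above the other 5. Of the 13 tested calmodulin and calcium buffer genes Pcp4 alone was called. Cib2, a calcium and integrin binding protein, rose from 18.6 ± 1.89 to 24.7 ± 2.46 FPKM, and Gem, a small GTPase that inhibits voltage-gated calcium channels, from 1.61 ± 0.145 to 2.86 ± 0.656 FPKM (adjusted p = 0.0272 and 0.0263, limma). Their calls were lost in 6 and 7 of 12 fits without 1 library, and both were lost with knockout and control libraries alone, with the column letters as a term and with the replicate block. Slc8a2, a sodium and calcium exchanger, fell from 4.11 ± 0.264 to 2.98 ± 0.359 FPKM (adjusted p = 0.0215, limma), a call lost under those same 3 settings and in 5 of 12 fits without 1 library. Kcnip4, a potassium channel subunit of the calcium sensor family, was at 1.65 ± 0.221 in controls and 0.881 ± 0.147 FPKM in knockouts (adjusted p = 0.0457, limma), the largest adjusted p of the 34 calls and one lost in each of the 12 fits without 1 library.

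Genes known from neurons were among the lower ones. Uchl1, a neuronal ubiquitin hydrolase, was at 43.7, 46.7, 40.5, 40.5 and 45.5 FPKM in the controls and between 24.8 and 30.4 in the knockouts (median 27.7), 0.645 times the control (log2 fold change -0.62, SE 0.07, adjusted p = 0.000309, limma). Nefm, the medium neurofilament subunit, was at 3.18 to 4.03 FPKM in controls and 1.72 to 2.54 in knockouts (log2 fold change -0.60, adjusted p = 0.0154, limma). Rit2, a Ras-like GTPase of neurons, was at 2.04 to 3.37 FPKM in controls and 0.454 to 1.73 in knockouts (log2 fold change -0.91, adjusted p = 0.0215, limma). With Kcnip4 these were the called members, 4 lower and 0 higher, of the 10 tested of 19 listed neuron genes, whose median log2 fold change was -0.32, and -0.17 with the column letters as a term. In that fit Uchl1 and Nefm stayed called, while Rit2 (adjusted p = 0.127) and Kcnip4 (adjusted p = 0.254) did not. Of 12 fits without 1 library, 5 lost the call of Rit2 and 3 that of Nefm. Mapk8ip2, a scaffold of JNK signalling that is rich in neurons, fell as well, from 1.85 ± 0.294 to 1.02 ± 0.195 FPKM (adjusted p = 0.0194, limma). Its call was lost with quantile normalization, the column letters, the replicate block and in 2 of 12 fits without 1 library. Mapk8ip2 is not on the neuron list, and neither are Ncam1 and Ngfr, which rose.

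The other 6 tested neuron genes were not called. Dcx, a microtubule protein of young neurons, was at 6.36 and 7.86 FPKM in controls and knockouts, Prph (peripherin) at 0.942 and 1.69, Gap43 of growing axons at 26.0 and 22.6, and Nefl at 2.73 and 1.74, with no call for any of them. Summed over the listed neuron genes, of which Uchl1 is the most abundant in these data, the level ran from 94.0 to 104 FPKM in controls and from 69.8 to 84.1 in knockouts. The sum includes the 4 genes called lower, Uchl1 with means of 43.4 and 28.0 FPKM among them, so it is no separate result. In whole forelimb, fewer cells of a type and less RNA per cell cannot be told apart. Schwann cell genes, which mark the glia along the same nerves, gave 1 call of 11, Ngfr, with a median log2 fold change of -0.02 that turned to 0.16 with the column letters as a term, and their summed level overlapped, from 115 to 179 FPKM in controls and 120 to 180 in knockouts. Sox10, a gene of Schwann cells though not of them alone, was at 7.31 and 7.15 FPKM (named after its value was seen).

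**Figure D4:**
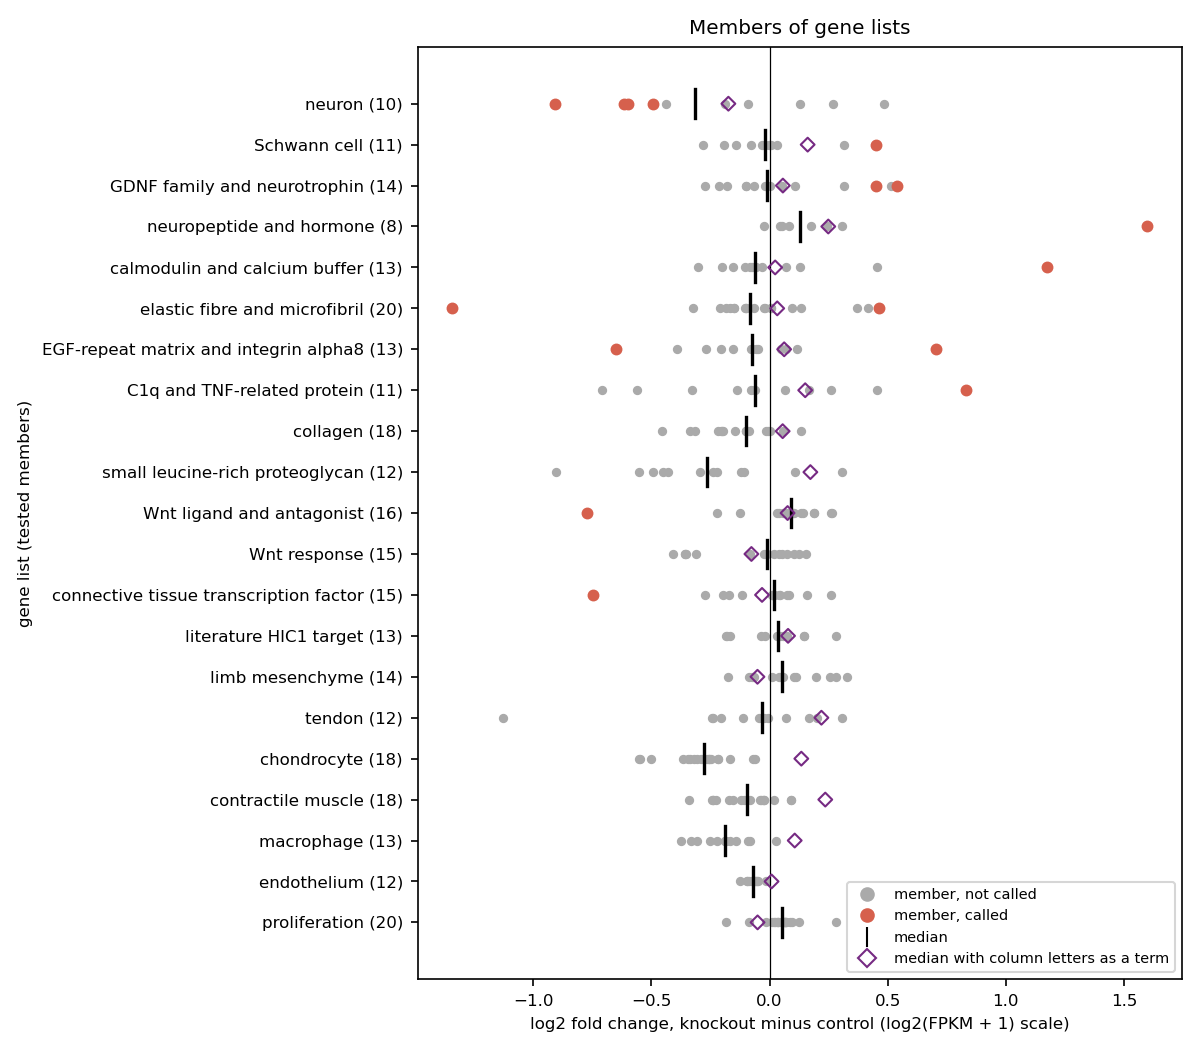
Log2 fold changes, knockout minus control, of the tested members of 21 gene lists (grey points, with called members in red), with the list median (bar) and the median when the column letters enter the fit (open diamond). Called neuron genes lie on the lower side, and the chondrocyte median moves from -0.28 to 0.13 between the fits.

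Transport and metabolism gave a further 4 genes. Slc14a2, a urea transporter, was at 0.780, 1.41, 2.50, 0.915 and 1.51 FPKM in the controls and between 4.49 and 6.35 in the knockouts (median 5.49). The mean was 3.79 times the control (log2 fold change 1.44, SE 0.16, adjusted p = 0.000193, limma), and no library of one group reached the other. Qprt, which makes a nicotinate nucleotide on the way to NAD, was at 3.52, 1.59, 1.37, 2.25 and 1.84 FPKM in the controls and between 0.331 and 0.751 in the knockouts, 0.249 times the control (log2 fold change -1.0, adjusted p = 0.00711, limma). Osbpl3, an oxysterol-binding-protein relative, rose from 5.32 ± 0.440 to 7.55 ± 0.564 FPKM (adjusted p = 0.000985, limma). Selenbp1, a methanethiol oxidase, was at 9.39 ± 0.577 in controls and 7.42 ± 0.836 FPKM in knockouts (adjusted p = 0.0392, limma), and the knockout replicate 6 value of 9.21 lay within the controls. Its call was lost in 10 of 12 fits without 1 library and with the column letters as a term (adjusted p = 0.163).

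The remaining called genes off chromosome 11 were higher. Lrrc75b, named for its leucine-rich repeats, was at 0.776, 0.986, 0.848, 1.27 and 1.18 FPKM in the controls and between 1.72 and 3.84 in the knockouts, 2.78 times the control (log2 fold change 0.90, adjusted p = 0.00447, limma). Kbtbd11, a kelch and BTB domain protein, went from 3.40 ± 0.296 to 4.81 ± 0.385 FPKM (adjusted p = 0.00929, limma). Spsb1, an adaptor of an E3 ubiquitin ligase, went from 7.16 ± 0.540 to 9.55 ± 0.786 FPKM (adjusted p = 0.0394, limma), and 10 of 12 fits without 1 library lost it.

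Chromosome 11, which carries Hic1, held 7 of the 34 called genes and 8.16% of the tested genes. Meox1 and Ngfr, described above, are among the 7. AA465934, annotated as a processed transcript at chr11:83291699-83294632 (plus strand), was at 77.5, 68.1, 66.4, 63.0 and 62.2 FPKM in the controls, at 66.5, 70.8, 76.6, 64.5 and 58.7 in the heterozygotes and between 121 and 179 in the knockouts (median 134). The knockout mean was 2.05 times the control and the heterozygote mean 1.00 times (log2 fold change of knockout against control 1.02, SE 0.09, adjusted p = 4.75e-06, limma). Slfn9, a Schlafen family gene at chr11:82978390-82991830 (minus strand), was at 5.34, 5.60, 6.25, 4.97 and 5.78 FPKM in the controls and between 2.78 and 3.44 in the knockouts, with heterozygotes at 5.94 ± 0.885 (log2 fold change -0.68, adjusted p = 0.000106, limma). Slfn9 has close relatives in a gene cluster, so its share of the reads is uncertain. Fam196b, at chr11:34314822-34422640 (plus strand), was at 1.89 ± 0.313 in controls, 2.57 ± 0.454 in heterozygotes and 4.13 ± 0.388 FPKM in knockouts (log2 fold change 0.83, adjusted p = 0.000106, limma). Controls and heterozygotes share 1 floxed allele each and knockouts have a pair. Linked alleles and loss of Hic1 thus cannot be told apart for the called genes of this chromosome, Meox1 and Ngfr included.

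Smg6, an endonuclease of nonsense-mediated decay, is the neighbour whose 3′ end faces that of Hic1, at chr11:74925823-75164448 on the plus strand, 117 bases from it. It was at 13.4, 14.5, 16.8, 13.9 and 15.3 FPKM in the controls, between 18.7 and 23.9 in the knockouts (median 21.5) and at 15.8 ± 1.21 in the heterozygotes. Knockouts lay above all controls and heterozygotes (log2 fold change against control 0.49, SE 0.07, adjusted p = 0.000985, limma). Smg6 was the called gene among 31 tested within 1 Mb of Hic1, whose median log2 fold change was 0.03, 18 positive and 13 negative. Tlcd2 was at 7.75 ± 1.04 and 10.5 ± 1.33 FPKM (adjusted p = 0.177, limma) and Rtn4rl1 at 2.01 ± 0.238 and 2.81 ± 0.466 (adjusted p = 0.415, limma), neither of them called. The library kit marks strand (TruSeq stranded mRNA, per the labels), but whether the authors' gene assignment used it is not given in the sources used here. Exons of 13 called genes overlap an exon of another annotated gene, 11 of them on the opposite strand, among them Nefm with Nefl, Smg6 with Srr, Cib2 with Sh2d7, Sned1 with Mterf4 and Uchl1 with Uchl1os, and their reads may be shared.

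Against the heterozygotes, which also carry Cre, 10 genes were called in the knockout, 7 higher and 3 lower (0.0774% of the tested genes, 0.0542% higher and 0.0232% lower). All 10 are among the 34: Hic1, Slfn9 and Frzb were lower, and Sst, Slc14a2, Pcp4, AA465934, Fam196b, C1qtnf7 and Smg6 were higher. This contrast uses the same knockout libraries as the one against controls, so it is no separate evidence, and the values stand side by side. For Sst the log2 fold change was 1.62 against heterozygotes and 1.6 against controls, for Pcp4 1.12 and 1.17, for C1qtnf7 0.67 and 0.83, and for Frzb -0.56 and -0.77. For Slc14a2 it was 0.98 and 1.44, with heterozygotes at 2.33 ± 0.898 FPKM between the other groups. Some lower genes were near the knockout level in the heterozygotes already: Efna3 was at 11.6 ± 0.687 FPKM there, Selenbp1 at 7.68 ± 0.295, Kcnip4 at 0.960 ± 0.316 and Mfap5 at 1.16 ± 0.691. Heterozygotes against controls gave 1 call, Hic1 (0.00774% of the tested genes, limma), and 725 genes (5.61%) had an unadjusted p under 0.05.

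The conventional knockout, in libraries that share nothing with the conditional ones, gave 3 calls of 12717 tested genes (0.0236%; 0.0157% higher and 0.00786% lower, limma; 7.06% at an unadjusted p under 0.05), of which Hic1 and Pcp4 were also called here. Of the other 33 genes called in the conditional knockout 30 were tested there, and 27 had the same sign: 18 of 19 higher and 9 of 11 lower. The sign was the same for 55.8% of all 12560 genes tested in both tables. The exceptions were Ncam1, with a log2 fold change of -0.20, Efna3 with 0.03 and Selenbp1 with 0.21. The tables were normalized apart, so levels are set side by side and the difference between the strategies was not tested.

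Pcp4 was at 4.22, 4.86 and 4.08 FPKM in the 3 wild type libraries and at 13.2, 13.7 and 13.7 in the 3 knockouts (log2 fold change 1.43, adjusted p = 0.0250, limma). Slc14a2 was at 1.70, 1.15 and 1.85 FPKM in wild type and 8.56, 5.07 and 4.83 in the knockouts, and Sst at 3.75, 2.46 and 3.76 and then 7.53, 6.04 and 6.20. Egfl6 was at 35.2, 39.1 and 35.8 FPKM in wild type and 9.33, 18.0 and 20.4 in the knockouts, and Nefm at 4.28, 3.91 and 4.30 and then 1.57, 2.08 and 2.34. Limma's adjusted p in that table was 0.187 for Slc14a2 and Nefm, 0.256 for Sst and 0.269 for Egfl6. None of the 4 was called there. Frzb was at 7.55, 7.36 and 7.12 FPKM in wild type and 6.42, 7.35 and 5.73 in the knockouts, a log2 fold change of -0.16. AA465934 was at 4.13, 4.21 and 6.89 FPKM in wild type and 12.1, 5.31 and 5.02 in the knockouts, so its level was under that of every conditional library. Slfn9, one of the 27 of equal sign, was at 1.74, 7.50 and 6.68 FPKM in wild type. Its knockouts were at 0.373, 1.77 and 8.03, so the ranges overlap. Conventional knockout replicate 1 stands apart, with a median correlation of 0.869 to the other libraries of its table where the others had 0.970 to 0.982, and without it 27 genes still had the same sign. The column names of that table carry the letters CH (replicate 1 of each genotype) and CL (replicates 2 and 3). With them as a term, chosen after seeing the data, 8 genes were called (0.0629%; 0.0236% higher and 0.0393% lower), among them Slc14a2 (adjusted p = 0.0430) and Pcp4 (adjusted p = 0.0270). In that fit the limma adjusted p was 0.115 for Sst and 0.0812 for Egfl6 and Nefm. Each genotype holds CH and CL in the same numbers, so the term leaves every fold change and its sign as they were.

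**Figure D5:**
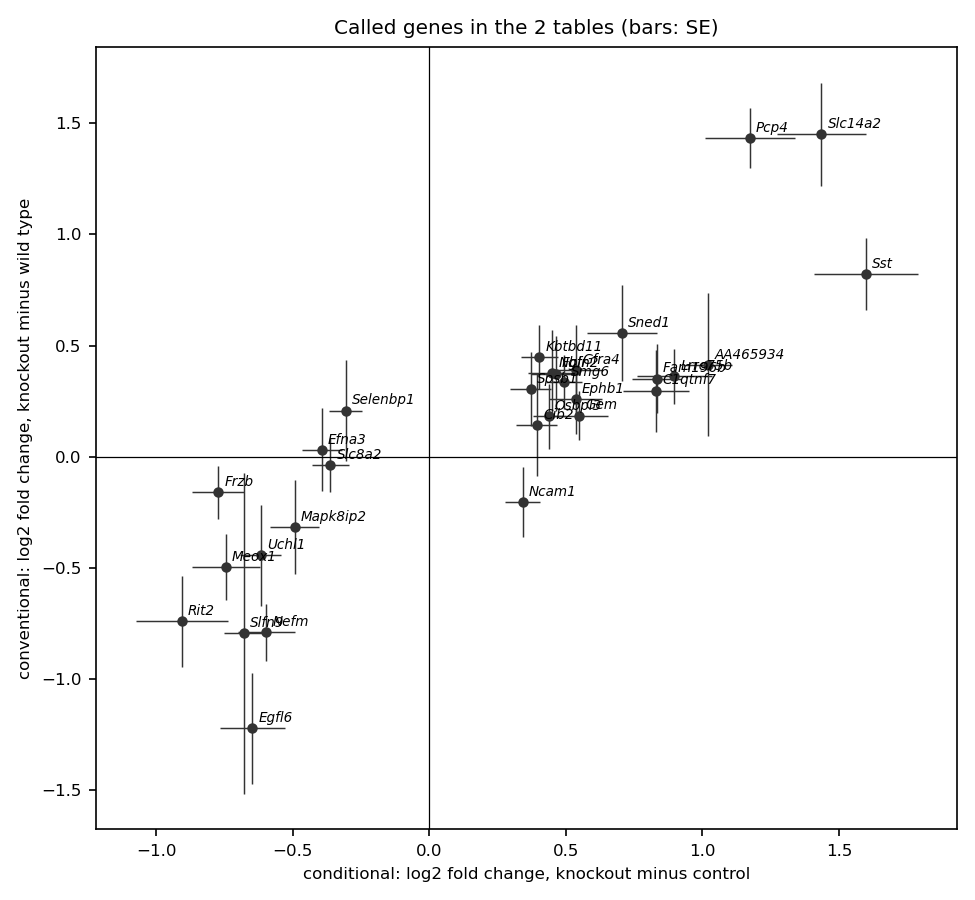
Log2 fold change of the 30 called genes other than Hic1 that were tested in both tables, conditional (horizontal) against conventional (vertical), with SE bars. Of these, 27 lie in the quadrants of equal sign, and Ncam1, Efna3 and Selenbp1 lie outside them.

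Many lists gave 0 calls. None of the 13 tested genes described as HIC1 targets in other systems was called, the nearest being Ccnd1 (cyclin D1) at 79.1 in controls and 96.2 FPKM in knockouts (log2 fold change 0.28, adjusted p = 0.067, limma). Efna1, an ephrin reported as a HIC1 target, was at 16.6 and 18.4 FPKM. The 12 HIC1 partners, Ctbp2 among them at 27.0 and 29.6 FPKM, were not called, and neither were the lists of limb mesenchyme, tendon, cartilage, joint, muscle, endothelium, macrophages, erythroid cells, epidermis, Hox genes, BMP, FGF, Hedgehog and retinoic acid signalling, proliferation and the p53 response. All 18 chondrocyte genes had a negative log2 fold change, with a median of -0.28, but the median was 0.13 with the column letters as a term, so no direction is given for cartilage. Their summed level ran from 622 to 1259 FPKM in controls and from 489 to 1097 in knockouts. The medians of contractile muscle (-0.09 and 0.24), macrophages (-0.19 and 0.11), collagens (-0.10 and 0.06) and small leucine-rich proteoglycans (-0.27 and 0.17) also changed sign between those fits. Thbs4, a tendon thrombospondin, was at 18.4 and 8.33 FPKM without a call (adjusted p = 0.28, limma), and Aspn (asporin) at 31.5 and 16.6.

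With the column letters as a term, 25 genes were called (20 higher and 5 lower; 0.194% of the tested genes, 0.155% higher and 0.0387% lower), while 6.44% of genes had an unadjusted p under 0.05. This fit rests on the 2 NZ and 1 OB controls, because the OC term takes up both OC controls. How far the calls lost in it follow from fewer controls was not tested. Of the 25, 14 were also called without the term, and all 34 kept their direction. Those 14 were Hic1, Sst, AA465934, Slfn9, Fam196b, Slc14a2, Uchl1, Frzb, Smg6, Osbpl3, Lrrc75b, Nefm, Sned1 and Fbln2. The 20 that missed the threshold in that fit had adjusted p-values from 0.0532 (Qprt) to 0.387 (Mfap5), and they include Pcp4, C1qtnf7, Meox1, Ephb1, Ncam1, Efna3, Mapk8ip2, Kbtbd11, Slc8a2 and Spsb1. The other 11 were all higher and are named after their values were seen. The largest was Aqp1, the water channel aquaporin 1, at 13.3, 15.4, 8.18, 19.8 and 18.6 FPKM in the controls and between 22 and 35.9 in the knockouts, with a log2 fold change of 0.98 without the term (adjusted p = 0.0694) and 1.43 with it (adjusted p = 0.00106, limma). For all 11 genes the lowest control was replicate 3, the single OB control. The 11 may therefore not be separate results, and how far their calls rest on that library was not tested. Ccdc3, Sbspon, Ooep, Sardh, Gstt1, Car12, Mme, Fmod, L1cam and Grik4 were the others. Just outside the threshold of the comparison without the term stood Hspb6 (adjusted p = 0.0530), Cgnl1, Mum1l1, Cys1, Tubb4a and Podn, and just inside it Kcnip4 (adjusted p = 0.0457), Spsb1 and Selenbp1.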

How the data were processed

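RNA was measured in 26 forelimb libraries, of which 12 form the comparison. The deposited values are FPKM per gene, as the column names state. Per the submitters' processing notes the authors used bcl2fastq, TopHat2, Bowtie2 and Cufflinks with build mm10. Versions, gene annotation and strand setting are not given in the sources used here. No counts are given, so depth and counting error are unknown. Each table lists 24340 genes, and 27 symbols that had become dates in the conditional table were restored from the line with the same locus in the other. Each table holds 1 empty line, which was left out.

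Values were taken as log2(FPKM + 1), and the 12918 genes averaging 1 FPKM or more across the 17 conditional libraries were tested with limma 3.58.1 in R 4.3.3 (lmFit, contrasts.fit, eBayes with a mean trend). All 3 conditional groups share one estimate of the spread, tests are two-sided, and a call needs an adjusted p (Benjamini-Hochberg) under 0.05. Such fold changes understate those of low genes. The conventional table (12717 genes) was fitted apart. Positions come from GENCODE M21.

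Every called gene is named, with up to 4 uncalled genes of smallest p from each of 40 lists (590 entries). The genes, lists and tests were chosen with earlier results of these data known, so counts over lists are no independent evidence. Alternatives covered pseudocounts, filters, scaling, weights, column letters, a replicate block and single libraries left out. Leaving out the OC or the Hbb-bs controls, the fits within OB or NZ and the conventional fit with its column letters were chosen after seeing the data.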

Additional observations from a re-analysis of the deposited data

Results flagged for a closer look

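In 8 of 102 groups (34 called genes in 3 conditional groups) 1 library lay far from the others by Dixon's gap, where chance gives about 1 in 20. Knockout replicate 6 was that library for AA465934 (179 FPKM, the next at 142), Egfl6 (15.3, the next at 22) and Selenbp1 (9.21, the next at 7.55). Knockout replicate 5 was it for Ephb1 (4.73 FPKM, the next at 3.70). Control replicate 1 was it for Kbtbd11 (2.88 FPKM, the next at 3.46). Among heterozygotes, replicate 3 was it for Fbln2 (42.9 FPKM, the next at 54.9), replicate 4 for Gfra4 (8.13, the next at 6.86) and replicate 2 for Nefm (4.45, the next at 2.78). For Selenbp1 the far library is the one that overlaps the controls.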

How the results depend on the processing

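All 34 called genes kept their direction in every alternative that gave them a value. For the 31 whose groups do not overlap, leaving out libraries cannot turn the direction. The kept direction is therefore no separate evidence. The count of 34 moved to 17 at a mean of at least 5 FPKM (which tests 19 of the 34 genes), 128 with array weights, 15 at an adjusted p under 0.01, 17 without the OC libraries, 5 without the Hbb-bs libraries, 6 within OB alone and 6 within NZ alone. It stayed within 1.5 times under the pseudocounts (32 and 33), no filter (44), upper quartile scaling (31), quantile normalization (38), knockout and control libraries alone (29), no mean trend (38) and the column letters as a term (25). Array weights gave 52 higher and 76 lower, no filter 22 and 22, and quantile normalization 23 and 15, against 19 and 15. Leaving out 1 library gave 17 to 46 calls, and 16 genes kept their call in all 12 such fits. Hic1 ranged from -3.48 to -3.33 in those fits and stayed called in each. The count of equal signs in the conventional table was 27 to 28 without 1 of its libraries. Its column letters as a term cannot change that count, and moved the calls in that table from 3 to 8. Replicate numbers do not pair the libraries (correlation of deviations -0.31 to 0.03), and the replicate block gave 26 calls, 17 higher and 9 lower. Fits within OB rest on 1 control, assumed to vary like the other libraries. Without read counts, no limit of detection can be given for the genes near 1 FPKM.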
